A study of Mus musculus with 28 samples.

Results

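miR-126a is the microRNA of endothelial cells, the cells that line blood vessels, and its arms mmu-miR-126a-3p and mmu-miR-126a-5p were followed here as a gauge of vessel content in joint tissue. The members were chosen by name, and they make up 2 of the 569 miRNA rows of the deposited table. mmu-miR-126a-3p holds values in both tissues of the study, and mmu-miR-126a-5p holds values only in subchondral bone.

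The mice were male C57BL6 animals operated on both knees at 10 to 12 weeks of age. The operation was destabilization of the medial meniscus (DMM), which loosens the joint and leads to osteoarthritis, or a sham operation, and tissue was collected 1 or 6 weeks later. The 28 arrays fall into 8 groups: DMM and sham cartilage at each week with 3 arrays a group, and DMM and sham subchondral bone at each week with 4 arrays a group. A cartilage array holds a pool of 3 mice and a bone array a single mouse, numbered by the labels. The bone titles put WT, read here as wild type, before each mouse number, and the cartilage titles carry no such mark. All tissue was cut by laser microdissection from decalcified sections of the medial tibial plateau, and 70 ng of RNA went onto an Agilent mouse miRNA array. In fits of a single tissue, cartilage p-values are therefore set by how far pools differ, and bone p-values by how far single mice differ. Fits over all 28 arrays share the spread of pools and single mice.

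MicroRNAs are short RNAs cut from a hairpin precursor; the 5p and 3p arms of the hairpin can each be loaded into the silencing complex, where the seed near the 5′ end finds target messages. miR-126a sits in an intron of Egfl7, a gene of a secreted endothelial protein, and is made with it. In endothelial cells the 3p arm represses Spred1 and Pik3r2, which restrain signalling downstream of vascular endothelial growth factor, and the 5p arm represses Dlk1 and so favours endothelial proliferation. Healthy articular cartilage holds no vessels, whereas subchondral bone and its marrow spaces are full of them, and vessel growth from bone into cartilage is a known feature of osteoarthritis. Megakaryocytes, platelets and blood progenitors carry miR-126a as well, so the arms are not exclusive to endothelium.

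In the mouse genome (GRCm38.p6, RefSeq) the Mir126a hairpin of 73 bases lies on the plus strand at chr2:26591357-26591429. The annotated span of Egfl7, chr2:26581083-26592682, contains it. The hairpin is printed because both arms come from it, with the 3p arm in capitals, and the mature 3p arm is printed with its seed, bases 2 to 8, in capitals.
Mir126a hairpin: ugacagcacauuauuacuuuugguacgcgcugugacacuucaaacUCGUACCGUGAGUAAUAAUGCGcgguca
mmu-miR-126a-3p: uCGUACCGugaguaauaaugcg
The 3p arm is bases 46 to 67 of the hairpin, at chr2:26591402-26591423. Of the 569 rows, 466 could be matched to a mature RefSeq sequence, and 0 of the others among them share its seed.

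Array medians lay between 6.26 and 6.32 on the log2 scale in cartilage and between 6.17 and 6.39 in bone. Within groups the bone array of sham mouse WT68 at 1 week stood apart. Its median correlation with the other arrays of its group was 0.883 over 490 rows. DMM differences at 1 week, differences between weeks in sham bone and over both operations, and partner correlations are also given without it. The bone list medians, within-group SDs and most alike miRNAs include it. The label fields disagree on the cartilage arrays, since the source field names cartilage and another field names subchondral bone. miR-140-3p, the miRNA most typical of chondrocytes, averaged 13.41 ± 0.19 in these arrays (SD, n = 12) and 9.34 ± 0.33 in the bone arrays (SD, n = 16), and the source field was followed.

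In cartilage the signal of miR-126a-3p was weak, and no difference between DMM and sham passed the test. At 1 week its log2 signals were 7.24, 5.72 and 5.36 in DMM cartilage, against 6.37, 5.87 and 5.82 in sham cartilage. The first DMM pool was the highest array of the tissue and the other DMM pools were below every sham pool, so the groups overlapped. The means were 6.11 ± 1.00 in DMM and 6.02 ± 0.30 in sham (SD, n = 3 each). The difference of 0.09 ± 0.46 (SE), with a 95% interval of -0.91 to 1.08, did not pass limma's test (adjusted p = 0.916 over 438 miRNAs, with adjusted p under 0.05 as the threshold). In the same comparison 122 of the 438 miRNAs passed, or 27.9%, 15.8% higher and 12.1% lower in DMM. The estimate for miR-126a-3p has no settled sign, since it was -0.24 with array weights.

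At 6 weeks the signals of miR-126a-3p were 5.20, 6.30 and 5.61 in DMM cartilage, against 5.93, 6.21 and 7.18 in sham cartilage. Only the second DMM pool reached into the range of the sham pools. DMM cartilage averaged 5.70 ± 0.55 and sham cartilage 6.44 ± 0.65 (SD, n = 3 each). The difference was -0.74 ± 0.46 (SE), with a 95% interval of -1.73 to 0.26, or 0.599-fold with an interval of 0.300 to 1.19. It did not pass limma's test (adjusted p = 0.248), and the exact permutation test of the 3 pools against 3 gave a two-sided p of 0.3, where the smallest possible is 0.1. Of the 438 miRNAs, 16.9% passed at this week, 9.59% higher and 7.31% lower in DMM. With each array left out in turn the estimate stayed below 0, between -1.04 and -0.37. It was -0.37 without the third sham pool and -0.49 without the first DMM pool.

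The size of that estimate placed miR-126a-3p near the lower end of the tissue. Only 3 of the 438 miRNAs had a lower difference, and all were miRNAs of blood cells, namely miR-451a, which red cell precursors make in bulk, and miR-223-3p and miR-142a-3p of the myeloid and wider leukocyte lineages. miR-451a differed by -1.34 ± 0.42 (SE; limma adjusted p = 0.0465), miR-223-3p by -1.19 ± 0.37 (limma adjusted p = 0.0465) and miR-142a-3p by -0.98 ± 0.33 (limma adjusted p = 0.0566). That order is by size alone, and miR-126a-3p was a variable row, with a within-group SD of 0.676 against a median of 0.172. By limma's p-value it ranked 231 of 438 (unadjusted p = 0.132), while 38.1% of the miRNAs had an unadjusted p under 0.05. In bulk tissue, fewer cells of a type and less RNA per cell cannot be told apart. The part of blood cells in the miR-126a-3p values was not tested.

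The change of the DMM difference between weeks, 6 weeks minus 1 week, was -0.83 ± 0.65 (SE) for miR-126a-3p in cartilage, and it did not pass (limma adjusted p = 0.999). Of the 438 miRNAs 0% passed this interaction test, 13 of them had an unadjusted p under 0.05, and quantile normalization of the arrays gave 1. Between weeks, DMM cartilage differed by -0.41 ± 0.46 (SE) at 6 weeks over 1 week (limma adjusted p = 0.676), where 4.79% of miRNAs passed, 2.28% higher and 2.51% lower. Sham cartilage differed by 0.42 ± 0.46 (limma adjusted p = 0.746), where 0.228% passed. Single pools decide these estimates. Without the first DMM pool at 1 week the DMM difference was 0.16 and the interaction -0.26, and without the third sham pool at 6 weeks the sham difference was 0.05. Over all arrays left out in turn the interaction ran from -1.20 to -0.26. By mean level the cartilage groups ran from sham at 6 weeks through DMM at 1 week and sham at 1 week down to DMM at 6 weeks, and no neighbours in this order differed by more than the larger SD of the pair.

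**Figure D1:**
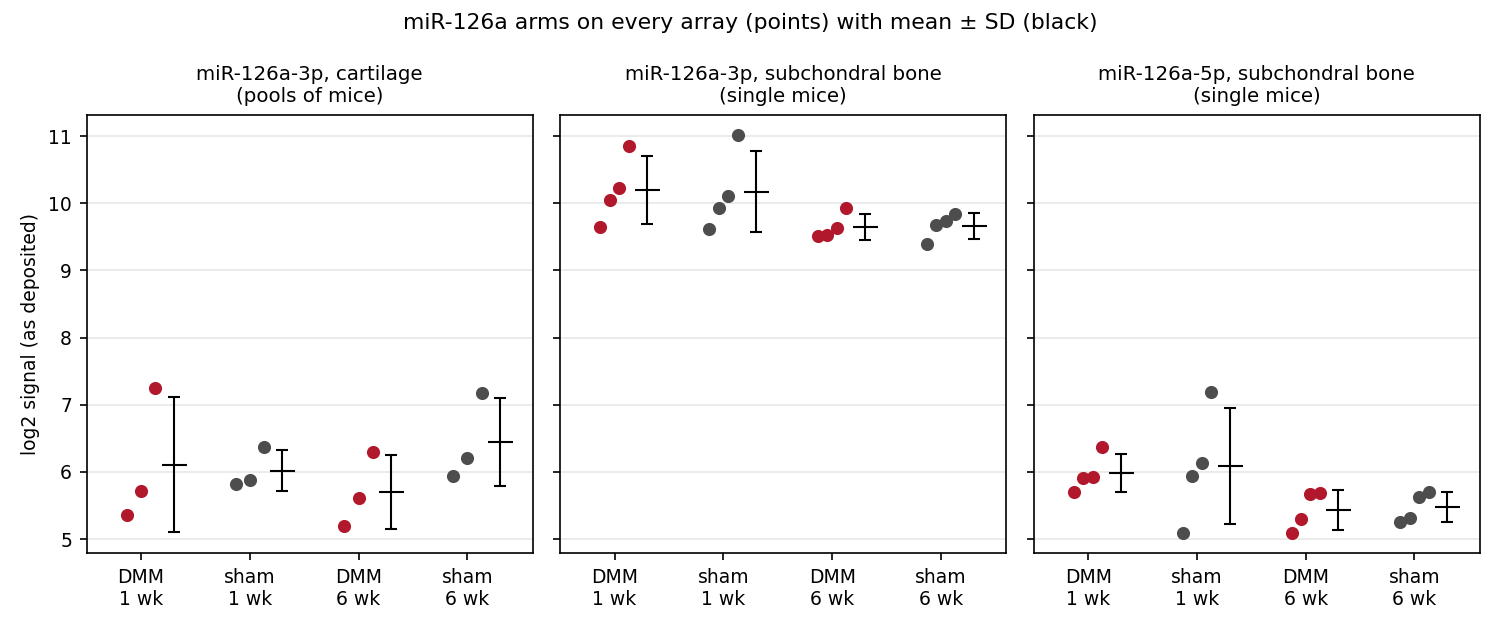
Log2 signal of mmu-miR-126a-3p and mmu-miR-126a-5p on each array (points), with group means and SD (bars), for DMM left of sham in each tissue and week. miR-126a-3p lies between 5.20 and 7.24 in cartilage and between 9.39 and 11.02 in bone, and in bone the 6-week arrays of miR-126a-3p, with an SD of 0.19 in each group, are bunched more closely than its 1-week arrays.

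In subchondral bone both arms had nearly the same mean in DMM and sham mice at each week. At 1 week miR-126a-3p had log2 signals of 10.86, 10.23, 9.64 and 10.05 in DMM bone, against 9.62, 10.11, 9.93 and 11.02 in sham bone. The highest and lowest DMM mice were WT67 and WT85, the highest and lowest sham mice were WT96 and WT68, and the groups overlapped throughout. Means were 10.19 ± 0.50 in DMM and 10.17 ± 0.60 in sham (SD, n = 4 each), a difference of 0.03 ± 0.28 (SE; limma adjusted p = 0.999 over 490 miRNAs). The 95% interval ran from -0.56 to 0.61, or from 0.678-fold to 1.53-fold. Without mouse WT68 the difference was -0.16 (limma adjusted p = 0.904).

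The 5p arm had the same highest and lowest mice. miR-126a-5p had 6.38, 5.90, 5.71 and 5.93 in DMM bone at 1 week, against 5.09, 5.93, 6.14 and 7.18 in sham bone. WT67 was again the highest and WT85 the lowest DMM mouse, and WT68 and WT96 were the lowest and the highest sham mouse. DMM averaged 5.98 ± 0.28 and sham 6.09 ± 0.86 (SD, n = 4 each), and the difference of -0.11 ± 0.32 (SE) did not pass (limma adjusted p = 0.999). Without WT68 it was -0.44, with a limma adjusted p of 0.738.

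At 6 weeks the mice lay close together in miR-126a-3p. miR-126a-3p had 9.53, 9.93, 9.52 and 9.63 in DMM bone, against 9.83, 9.68, 9.73 and 9.39 in sham bone. The means were 9.65 ± 0.19 in DMM and 9.66 ± 0.19 in sham (SD, n = 4 each), a difference of -0.01 ± 0.28 (SE; limma adjusted p = 0.998). The 95% interval, -0.59 to 0.58, corresponds to 0.663-fold to 1.50-fold.

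miR-126a-5p at 6 weeks had 5.68, 5.67, 5.09 and 5.30 in DMM bone, against 5.70, 5.31, 5.26 and 5.62 in sham bone. DMM averaged 5.44 ± 0.29 and sham 5.47 ± 0.22 (SD, n = 4 each), with a difference of -0.04 ± 0.32 (SE; limma adjusted p = 0.998). In bone 0% of the 490 miRNAs passed for DMM over sham at either week by limma, so the absence of a call for the arms does not set them apart. At an unadjusted p under 0.05 there were 3 miRNAs at 1 week and 2 at 6 weeks, and a fit with array weights called 38 at 1 week and 54 at 6 weeks, neither arm among them. The change of the DMM difference between weeks was -0.03 ± 0.39 for miR-126a-3p and 0.07 ± 0.45 for miR-126a-5p (SE), with a limma adjusted p of 1 for both arms and 0% of miRNAs passing.

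**Figure D2:**
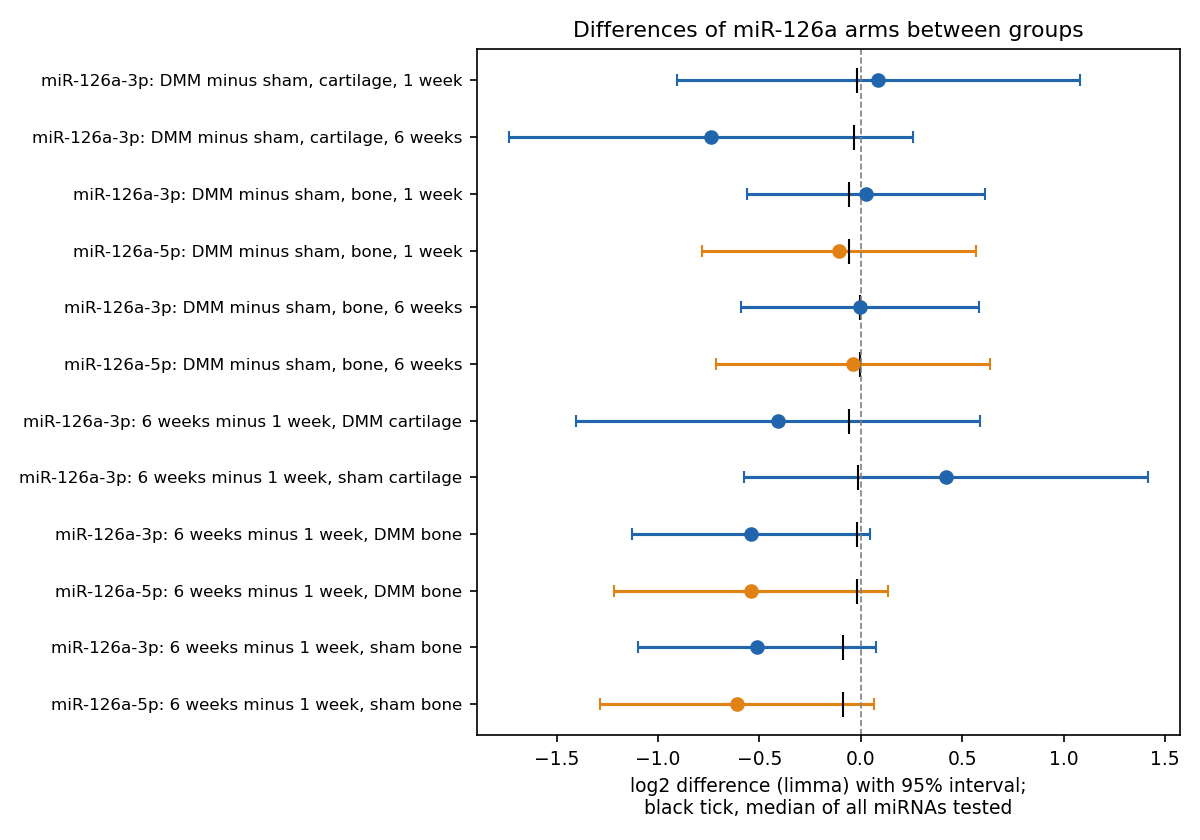
Log2 differences of the miR-126a arms (points) with 95% intervals from limma, for DMM minus sham and for 6 weeks minus 1 week, with the median of all miRNAs tested as a black tick. All 12 intervals include 0, and the 4 bone differences between weeks lie between -0.61 and -0.51.

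Between weeks both arms had lower estimates at 6 weeks than at 1 week in bone, by a similar amount after either operation, and no single comparison passed limma's test. The 6-week bone mice have label numbers 5 to 26 and the 1-week bone mice 66 to 96. The 6-week mice were also older at collection, so week cannot be told apart from age or animal numbering. In DMM bone the difference of 6 weeks minus 1 week was -0.54 ± 0.28 (SE) for miR-126a-3p, with a 95% interval of -1.13 to 0.04 and an adjusted p of 0.288 from limma. For miR-126a-5p in DMM bone it was -0.54 ± 0.32 (SE; limma adjusted p = 0.358). Without WT67, the highest DMM mouse at 1 week, the differences were -0.32 for miR-126a-3p and -0.41 for miR-126a-5p (limma adjusted p = 0.711 for each). The 4 DMM mice at 6 weeks had lower miR-126a-5p signals than all 4 DMM mice at 1 week, 5.09 to 5.68 at 6 weeks against 5.71 to 6.38 at 1 week. Those 6-week miR-126a-5p signals were weak, above only 5.51% to 23.5% of the miRNAs on their arrays. The exact permutation test gave that arm a two-sided p of 0.0286, the smallest that 4 mice against 4 allow, and gave miR-126a-3p 0.0571. Groups that do not overlap were found for 55 of the 490 miRNAs in this comparison, or 11.2%.

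By mean level the bone groups ran, for miR-126a-3p, from DMM and sham at 1 week down to sham and DMM at 6 weeks, with no gap between neighbours above the larger SD. For miR-126a-5p sham at 1 week was above DMM at 1 week, sham at 6 weeks and DMM at 6 weeks, and only DMM at 1 week and sham at 6 weeks, 0.50 apart, differed by more than the larger SD of 0.28.

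In sham bone the difference between weeks was -0.51 ± 0.28 (SE) for miR-126a-3p and -0.61 ± 0.32 for miR-126a-5p, each with a limma adjusted p of 0.414. Here the values of the weeks overlapped, because sham mouse WT68 was low at 1 week. Without WT68 the differences were -0.70 for miR-126a-3p (limma adjusted p = 0.112) and -0.94 for miR-126a-5p (limma adjusted p = 0.076). Without WT96, the highest sham mouse at 1 week, they were -0.23 for miR-126a-3p and -0.25 for miR-126a-5p (limma adjusted p = 0.824 for each). In bone 0% of the 490 miRNAs passed between weeks after DMM and 0% after sham, while 95 had an unadjusted p under 0.05 after DMM and 54 after sham. Array weights gave 274 calls in DMM bone and 140 in sham bone, with miR-126a-5p among the first (-0.63, adjusted p = 0.0035) and miR-126a-3p among the second (-0.61, adjusted p = 0.0358).

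The signals of miR-126a-3p lay far apart between the tissues. It averaged 6.07 ± 0.64 in cartilage (SD, n = 12) and 9.92 ± 0.46 in bone (SD, n = 16), and every bone array, the lowest at 9.39, was above every cartilage array, the highest at 7.24. Of the 359 miRNAs with values in both tissues, only miR-223-3p and miR-451a had a lower cartilage minus bone difference, -5.20 and -4.62 against -3.85 for miR-126a-3p and a median of -0.06. miR-140-3p lay at the other end with 4.07. These differences are a description, since the sources used here do not say whether both tissues were normalized together. On the cartilage arrays the miR-126a-3p signal lay below the array's median on 8 of 12 arrays, and the lowest value on each array was between 4.72 and 5.13, so the lowest pools at 5.20 and 5.36 were close to the bottom of the scale. In bone miR-126a-5p was below the array median on 14 of 16 arrays, and the lowest value on each bone array was between 4.08 and 4.79.

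The DMM difference of miR-126a-3p was also compared between tissues, in a fit that shares its spread between cartilage pools and single bone mice. At 1 week the cartilage minus bone contrast was 0.06 ± 0.54 (SE; limma adjusted p = 0.982 over 359 miRNAs), where 0.279% of miRNAs passed. At 6 weeks it was -0.73 ± 0.54, with a 95% interval of -1.85 to 0.38 (limma adjusted p = 0.826), where 0.557% passed. With single arrays left out it ran from -1.03 without the second DMM pool to -0.37 without the third sham pool at 6 weeks.

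**Figure D3:**
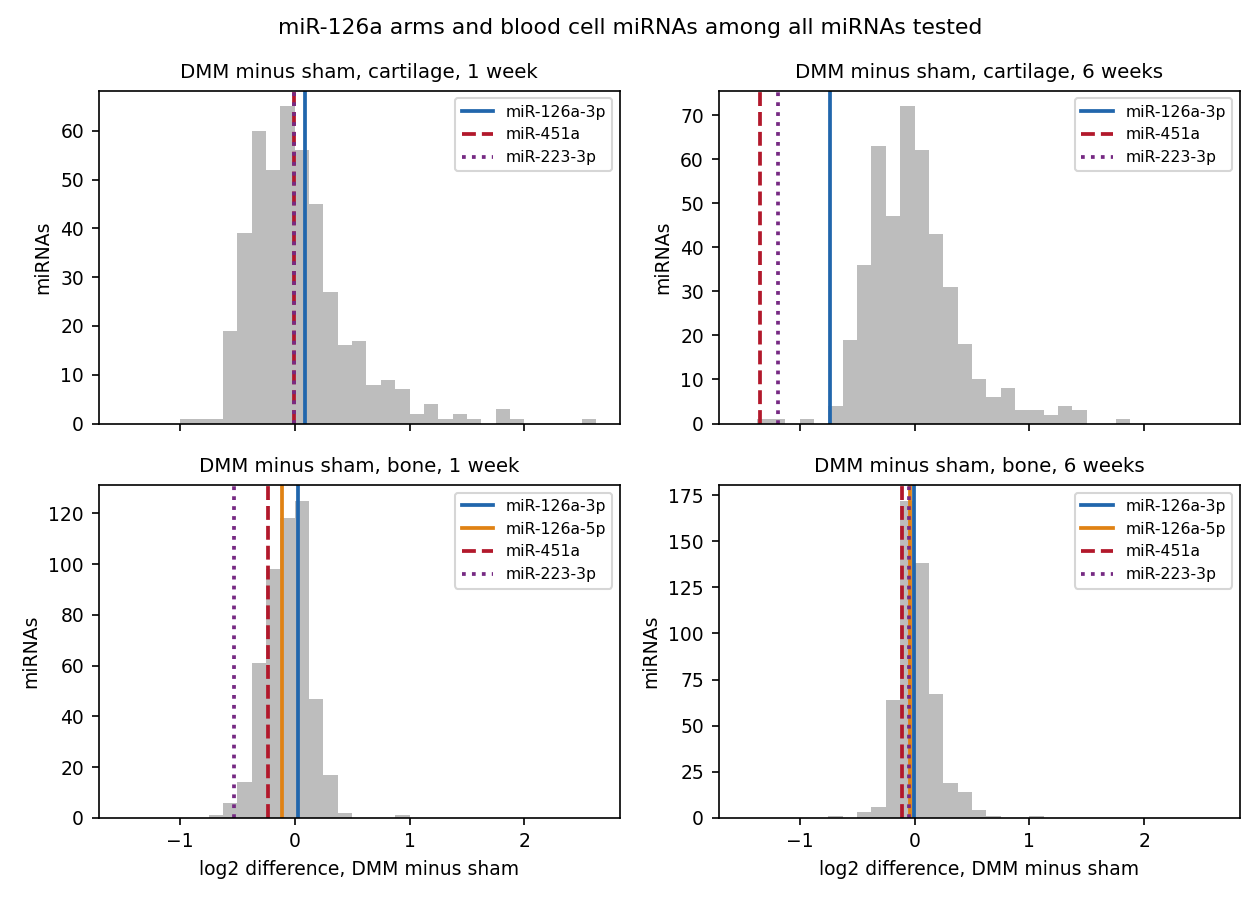
Histograms of the log2 difference of DMM minus sham over all miRNAs tested, in cartilage and bone at 1 and 6 weeks, with lines for the miR-126a arms, miR-451a and miR-223-3p. In cartilage at 6 weeks miR-126a-3p (-0.74) lies left of the bulk of the 438 miRNAs together with miR-451a and miR-223-3p, and in bone at 6 weeks all lines lie close to 0. The miR-126a-3p difference did not pass limma's test in any panel.

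The spread of miR-126a-3p between cartilage pools was large for the tissue. Its pooled within-group SD was 0.676, against a median of 0.172 over the 438 miRNAs, and only 5 miRNAs were more variable. In bone the within-group SDs were 0.416 for miR-126a-3p and 0.489 for miR-126a-5p, against a median of 0.333.

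Over the bone arrays the arms moved together. Their log2 signals correlated at r = 0.87 over 16 arrays (permutation p = 3e-05, adjusted p = 0.000135 over 9 relations; Spearman rho = 0.81, permutation adjusted p = 0.00117). For this and the other relations pairings were permuted across groups, so the p-values also take in group differences, and r within groups was not tested. Without mice WT67 and WT96, the 2 arrays farthest from the median of miR-126a-3p, r was 0.65. Within groups, on deviations from the group means, r was 0.81 and rho 0.57. Leaving out WT68 gave 0.87, and for the bone relations that follow it gave 0.94 with miR-143-3p, 0.72 with miR-145a-5p, 0.61 with miR-223-3p, -0.20 with miR-451a and 0.72 with miR-140-3p.

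Of the markers of the muscle cells and pericytes that wrap vessels, 2 of 5 had values in bone and 0 of 5 in cartilage. Their bone signals were weak, averaging 5.97 for miR-143-3p and 5.70 for miR-145a-5p. miR-143-3p, which keeps vascular smooth muscle contractile, followed miR-126a-3p closely in bone, at r = 0.93 (permutation adjusted p = 0.000135, rho = 0.86). Without the 2 farthest arrays r was 0.78, and within groups it was 0.90, with a rho of 0.74. At 1 week miR-143-3p had 6.96, 6.14, 5.84 and 6.06 in DMM bone, against 5.39, 6.42, 6.10 and 7.22 in sham bone. WT67 and WT96 were its highest mice too, and WT68 its lowest at that week. miR-145a-5p, from the same cluster, gave r = 0.73 (permutation adjusted p = 0.00387), 0.56 without the 2 farthest arrays and 0.55 within groups (rho = 0.41).

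Markers of leukocytes and red cell precursors were set against miR-126a-3p in each tissue. In bone miR-223-3p correlated with miR-126a-3p at r = 0.61 (permutation adjusted p = 0.028), 0.84 without the 2 farthest arrays and 0.48 within groups. miR-451a gave r = -0.13 in bone (permutation adjusted p = 0.654), with -0.55 without the 2 farthest arrays and 0.38 within groups. miR-140-3p gave r = 0.73 in bone (permutation adjusted p = 0.00583), but rho = 0.44 (adjusted p = 0.115) and r = 0.29 without WT67 and WT96, so this relation rests on those arrays.

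In cartilage miR-126a-3p correlated with miR-451a at r = 0.61 (n = 12, permutation adjusted p = 0.0428) and with miR-223-3p at r = 0.63 (permutation adjusted p = 0.0428). By rank the relations did not pass, with rho = 0.61 (adjusted p = 0.0716) and rho = 0.57 (adjusted p = 0.083). Without the third sham pool at 6 weeks and the first DMM pool at 1 week, r was 0.67 and 0.68, and within groups it was 0.70 and 0.52. The third sham pool at 6 weeks, with the second highest miR-126a-3p signal of the tissue, was the highest for both blood cell miRNAs, at 10.09 for miR-451a and 9.01 for miR-223-3p. The first DMM pool at 1 week, the highest for miR-126a-3p, had 7.59 and 7.41, which is within the range of the other pools at 1 week. miR-140-3p correlated at r = 0.44 (permutation adjusted p = 0.172).

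**Figure D4:**
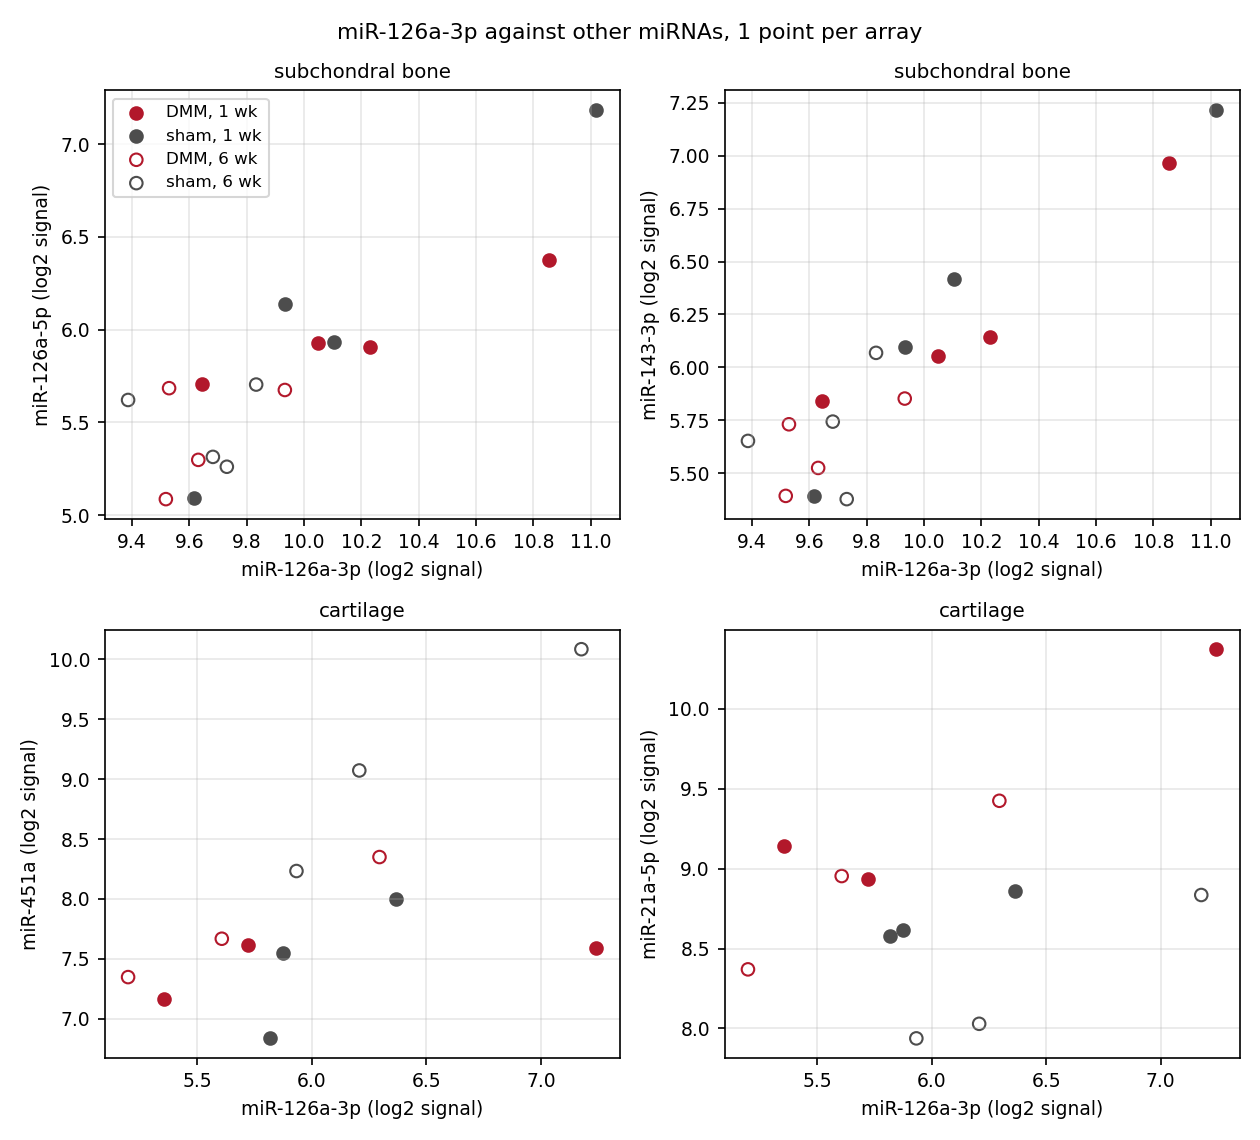
Log2 signals of miR-126a-3p (x axis) against miR-126a-5p and miR-143-3p in bone and against miR-451a and miR-21a-5p in cartilage, 1 point per array, filled at 1 week and open at 6 weeks. In bone WT67 and WT96 lie at the upper right for both partners, and in cartilage the first DMM pool at 1 week is high in miR-126a-3p (7.24) and miR-21a-5p (10.37) but not in miR-451a (7.59).

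The blood cell lists were read as wholes in cartilage at 6 weeks, where miR-126a-3p had its lowest DMM estimate. Of the 7 listed erythroid miRNAs 2 had values there and both fell in DMM, miR-451a and miR-486a-5p (-0.50, limma adjusted p = 0.0283), with a median difference of -0.92. Of 8 leukocyte miRNAs 3 had values and 2 fell, miR-223-3p and miR-342-3p (-0.57, limma adjusted p = 0.0172), with a median of -0.98, while the median over all 438 miRNAs was -0.04 and 7.31% of them fell. Their summed log2 levels ran from 7.75 to 8.55 in DMM and 8.50 to 10.18 in sham for the erythroid list, and from 8.00 to 8.52 in DMM and 8.64 to 9.79 in sham for the leukocyte list. No erythroid or leukocyte miRNA passed when DMM pool 1 or 2 or sham pool 2 or 3 at 6 weeks was left out. In the fit over all 28 arrays 0 of 359 miRNAs passed as lower in DMM cartilage at 6 weeks. That fit shares its spread between pools and single bone mice. The median within-group SD was 0.172 over the cartilage rows and 0.333 over the bone rows. Over the 438 miRNAs 5 passed as lower with only the groups compared and 12 with the replicate block, against 32 in the main fit. In bone at 6 weeks 0 of 5 erythroid and 0 of 6 leukocyte miRNAs passed, with medians of 0.02 and -0.08.

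A list of 26 miRNAs with known roles in vessel growth was read beside the arms. In cartilage 21 of them had values. At 1 week 1 rose in DMM, miR-222-3p (0.52, limma adjusted p = 0.0107), which restrains the stem cell factor receptor in human endothelium. The 1 that fell was miR-210-3p (-0.33, limma adjusted p = 0.049), the main miRNA induced by low oxygen. The list median was -0.23 against -0.02 over all miRNAs. The calls are 4.76% of the 21 in each direction, where 15.8% of all miRNAs rose and 12.1% fell. Without single arrays the lower calls over all 438 miRNAs at 1 week ran from 8 to 66, against 53 in the main fit. At 6 weeks 4 fell by limma, namely miR-210-3p (-0.59), miR-15a-5p (-0.55), miR-100-5p (-0.51) and miR-10a-5p (-0.45), and 0 rose, with a median of -0.27 against -0.04. This is 19.0% of the 21, where 7.31% of all miRNAs fell. Without single arrays the count at 6 weeks ran from 1 to 8, the lowest without DMM pool 2 or sham pool 2 and the highest without sham pool 1. In the fit over all 28 arrays, which shares its spread with the bone mice, 0 of 359 miRNAs passed as lower in DMM cartilage at either week. In DMM cartilage at 6 weeks over 1 week miR-155-5p rose (0.41) and miR-222-3p fell (-0.79), 4.76% of the list in each direction, where 2.28% of all miRNAs rose and 2.51% fell.

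In bone all 26 had values and 0 passed in any comparison. Between weeks, 24 of the 26 had lower estimates at 6 weeks in DMM bone and 24 in sham bone, with medians of -0.35 in DMM bone and -0.46 in sham bone. Over all 490 miRNAs 249 had estimates below 0 in DMM bone (median -0.02) and 285 in sham bone (median -0.09). The vessel wall miRNAs had a median of -0.57 in DMM bone and -0.47 in sham bone, and the miR-126a arms -0.54 in DMM bone and -0.56 in sham bone. The 5 erythroid miRNAs had medians of the other sign, 0.53 in DMM bone and 0.20 in sham bone, with miR-451a at 1.01 in DMM bone and 0.90 in sham bone. Estimates below 0 were not limited to vessel lists, since all 3 measured cartilage miRNAs had them, with medians of -0.28 in DMM bone and -0.43 in sham bone. The 6 leukocyte miRNAs had medians of 0.09 in DMM bone and -0.24 in sham bone, with miR-223-3p at -0.31 in DMM bone and -0.79 in sham bone. None of these passed limma's test.

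The miRNAs whose pattern was most like that of miR-126a-3p were found in each tissue by the correlation of deviations from group means over its arrays. In cartilage, over 12 arrays, these were miR-21a-5p (r = 0.96), miR-106b-5p (0.90), miR-199a-5p (0.88), miR-214-3p (0.86) and miR-93-5p (0.86). In bone, over 16 arrays, they were miR-195a-5p (r = 0.95), miR-497a-5p (0.95), miR-30a-5p (0.94), miR-29a-3p (0.94) and miR-148a-3p (0.93). By rank the bone values were lower, with rho = 0.72, 0.79, 0.89, 0.92 and 0.80 in that order, while in cartilage rho ran from 0.85 to 0.95. The 2 sets of 5 share 0 miRNAs. In bone miR-21a-5p ranked 15 of 489 (0.90) and miR-199a-5p 17 (0.90), while the nearest in cartilage of the bone set was miR-30a-5p, at rank 41 of 437 (0.57).

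An r above 0.8 was found for 7 of 437 miRNAs in cartilage (1.60%), where the median r was 0.01, and for 40 of 489 in bone (8.18%), where the median was 0.09. miR-143-3p ranked 14 in bone and the 5p arm 38 of 489. The lowest values were -0.84 for miR-6937-5p, -0.82 for miR-712-5p and -0.81 for miR-7686-3p in cartilage, and -0.74 for miR-5100, -0.70 for miR-706 and -0.69 for miR-714 in bone. All these correlations share the arrays and their normalization and are given as a description.

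Several of the most alike miRNAs are neighbours in the genome or share a seed, and they are printed to show this, with seeds (bases 2 to 8) in capitals and none equal to that of miR-126a-3p.
mmu-miR-21a-5p: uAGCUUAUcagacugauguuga
mmu-miR-106b-5p: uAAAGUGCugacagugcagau
mmu-miR-93-5p: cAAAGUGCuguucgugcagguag
mmu-miR-195a-5p: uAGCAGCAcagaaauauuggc
mmu-miR-497a-5p: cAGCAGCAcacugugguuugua
miR-106b-5p and miR-93-5p have the same seed and start 213 bases apart on chromosome 5. miR-195a-5p and miR-497a-5p also share a seed and start 332 bases apart on chromosome 11. miR-199a-5p and miR-214-3p start 5594 bases apart on chromosome 1 and differ in seed.

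miR-21a-5p, a miRNA of injured and inflamed tissue, was closest to miR-126a-3p within groups in cartilage, while their DMM estimates at 6 weeks had opposite signs. At 1 week it had 10.37, 8.94 and 9.14 in DMM cartilage, against 8.86, 8.62 and 8.58 in sham cartilage. At 6 weeks it had 8.37, 9.43 and 8.95 in DMM cartilage, against 7.94, 8.03 and 8.84 in sham cartilage. Within each of the 4 groups the pool with the most miR-126a-3p was also the pool with the most miR-21a-5p. Since miR-21a-5p was picked for its within-group correlation on these same arrays, this restates the choice and is no separate result. The DMM estimate of miR-21a-5p at 6 weeks was 0.65 ± 0.37 (SE, limma adjusted p = 0.211), while that of miR-126a-3p was -0.74 (limma adjusted p = 0.248). Neither passed, and whether the estimates differ from each other was not tested. Over all 12 arrays without removing group means r was 0.47.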

How the data were processed

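The deposited table holds 1 value per miRNA and array of 28 Agilent mouse miRNA arrays (release 21). Its values are log2 signals as deposited, read as such from their range of 4.08 to 16.7. Version 3.20.9 of limma is named in the submitters' processing notes, and for background correction, normalization and row filtering the method was not given in the sources used. In cartilage 438 rows hold values on every array, in bone 490, and 359 are shared, and 0 columns were left unused. Groups were read from the labels. The number of arrays limits the precision.

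The values were fitted per tissue with limma 3.58.1 in R 4.3.3 (group means, eBayes, Benjamini-Hochberg adjustment over all rows, adjusted p under 0.05), and over all 28 arrays for contrasts between tissues. Single values were tested by exact two-sided permutation. Correlations used 100000 resamples of pairings, two-sided (Python 3.11.15, numpy 2.4.6), adjusted over 9 relations. The alternatives were other normalizations, priors, weights, filters and sample sets, a replicate block and each array left out. The scripts were tested on simulated data.

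Besides the arms, the text names 6 partner miRNAs, the 5 most and 3 least alike per tissue, marker list members, and angiogenesis members that passed. The members and lists were chosen with earlier results of these data known. Sequences are from RefSeq (GRCm38.p6).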

Additional observations from a re-analysis of the deposited data

How the results depend on the processing

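The 17 tested differences of the arms were recomputed in 390 ways, of which 343 kept direction and side of the threshold. 44 changed sign and 3 passed it where the reported value did not. The 12 group levels moved by less than 1 SD under both scalings. The cause of the changes was not tested.

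The values that passed were miR-126a-5p in DMM bone at 6 weeks over 1 week with array weights (-0.63, adjusted p = 0.0035) and by the exact permutation test (-0.54, p = 0.0286), and miR-126a-3p in sham bone with array weights (-0.61, adjusted p = 0.0358). The permutation p is not adjusted over the 490 miRNAs and is the smallest that 4 mice against 4 allow. In that comparison 55 of the 490, or 11.2%, had groups that do not overlap. Array weights called 274 of the 490 miRNAs between weeks in DMM bone and 140 in sham bone, where the main fit called 0 in each.

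Array weights turned miR-126a-3p for DMM over sham at 1 week to -0.24 in cartilage and -0.13 in bone, and to 0.084 in bone at 6 weeks. They turned the change of the bone DMM difference between weeks to 0.21 for miR-126a-3p and -0.18 for miR-126a-5p, and the cartilage minus bone contrast at 1 week to -0.070. Centring on the 75th percentile gave -0.0043 for miR-126a-3p in cartilage at 1 week, 0.031 for miR-126a-5p in bone at 1 week, -0.11 for the change between weeks of miR-126a-5p and -0.12 for the contrast between tissues at 1 week, where quantile normalization gave -0.19.

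With each array left out in turn, DMM minus sham at 1 week ran from -0.48 to 0.46 in cartilage, and in bone from -0.19 to 0.31 for miR-126a-3p and -0.44 to 0.26 for miR-126a-5p. At 6 weeks in bone it ran from -0.099 to 0.053 for miR-126a-3p and from -0.12 to 0.077 for miR-126a-5p. The change between weeks in bone ran from -0.31 to 0.19 for miR-126a-3p and -0.30 to 0.40 for miR-126a-5p, 6 weeks over 1 week in DMM cartilage from -0.78 to 0.16, and the contrast between tissues at 1 week from -0.51 to 0.44.

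Cartilage pools with the same replicate number in their titles correlated at -0.49 to 0.44 (median -0.25 over 18 pairs). Other pairs correlated at -0.55 to 0.58 (median 0.06 over 36 pairs), so the ranges overlapped. Whether the replicate numbers pair the pools was not tested. With the replicate block the differences of miR-126a-3p were the same, 0.087 at 1 week and -0.74 at 6 weeks for DMM over sham, with limma adjusted p of 0.928 and 0.314, and 0.735 in DMM and 0.83 in sham cartilage between weeks.

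Counts of all miRNAs called moved more. They ran from 27 to 172 in cartilage at 1 week (122 as reported), from 2 to 189 at 6 weeks (74), from 2 to 35 in DMM cartilage between weeks (21) and from 0 to 68 in sham cartilage (1). For the contrasts between tissues they ran from 1 to 52 at 1 week (1) and from 2 to 32 at 6 weeks (2). Leaving out miRNAs with a mean below the tissue's median removed miR-126a-3p in cartilage and miR-126a-5p in bone, so no value is given there. Signal over background was not used here.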

Other observations

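Because the differences between weeks in bone were alike after DMM and sham, the weeks were also compared over both operations together, a comparison added after the values were seen. Week cannot be told apart here from age at collection or animal numbering. miR-126a-3p averaged 9.66 at 6 weeks and 10.18 at 1 week, a difference of -0.53 ± 0.20 (SE; limma adjusted p = 0.0788). miR-126a-5p averaged 5.46 at 6 weeks and 6.03 at 1 week, a difference of -0.58 ± 0.23 (SE; limma adjusted p = 0.0901). Neither arm passed, while 37 of the 490 miRNAs did. That count was 0 without any one of 11 of the 16 arrays and 37 to 144 without any one of the other 5, and up to 308 under other settings. Without sham mouse WT68 at 1 week, whose array stood apart, both passed (limma adjusted p = 0.0287 for miR-126a-3p and 0.0162 for miR-126a-5p), as did 144 of the 490 miRNAs. With array weights both passed (adjusted p = 0.00446 and 0.00159), as did 308 of the 490. Without sham mouse WT96 at 1 week the differences were -0.38 for miR-126a-3p and -0.39 for miR-126a-5p (limma adjusted p = 0.133 and 0.143). In cartilage the same comparison gave 0.01 for miR-126a-3p (limma adjusted p = 0.991).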
